A study of Gallus gallus with 10 samples.

Results

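The interleukin-2 receptor gamma chain gene IL2RG, the decoy receptor gene IL22RA2, the chemokine gene CCL20 and the interferon-induced kinase gene CMPK2 were followed through the kidneys of broiler chickens fed different amounts of calcium (Ca). The 4 genes, out of 17108 counted, were chosen by name. They are some of the cytokine, chemokine and interferon-induced genes that the study had called between Ca groups on these same birds. Others that it called, such as CXCL12 and RSAD2, come in below as listed genes. IL2RG was called between 1.0 and 0.8% Ca, IL22RA2 and CCL20 between 1.2 and 1.0% Ca, and CMPK2 between 1.0 and 0.8% Ca and between 1.2 and 0.8% Ca. For those comparisons the values below are a description with no test. All 4 genes passed the filter on low counts, which left 12187 genes.

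The birds were Ross 308 broilers, kept in floor pens from their first day and killed at 21 days of age, close to the mean weight of their diet group. Kidney RNA was sequenced with 1 library per bird. There were 3 birds on 0.8% Ca (birds 1, 3 and 4), 4 birds on 1.0% Ca (birds 1 to 4) and 3 birds on 1.2% Ca (birds 1 to 3). All diets held non-phytate phosphorus at the same level and contained added phytase, so the diets differed by design only in Ca. In the study, body weight at 21 days and feed intake were lower at higher Ca. Neither can be told apart from Ca here. The birds carry no altered gene, and the labels give neither their sex nor the pen of each bird. Libraries held between 6176553 and 7857813 counted fragments in 1 file, and pairs of libraries correlated with r between 0.93 and 0.98 across genes. Column headers place all 3 birds at 1.2% Ca and birds 1 and 2 at 1.0% Ca in sequencing lane 1. All 3 birds at 0.8% Ca and birds 3 and 4 at 1.0% Ca were in lane 2. Lane and Ca can therefore be separated only within the 1.0% Ca group and, for neighbouring Ca levels, within each lane.

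Cytokines and chemokines are secreted signals that leukocytes and epithelial cells use to recruit and instruct each other. Many interleukins act through paired receptor chains that activate JAK kinases and STAT transcription factors, and IL2RG encodes the chain that several of these receptors share on lymphocytes and other leukocytes. In human and mouse, IL22RA2 encodes a secreted protein that binds interleukin-22 and keeps it from its receptor on epithelium, and CCL20 encodes the ligand of the receptor CCR6, which attracts lymphocytes and dendritic cells to epithelia. Interferons switch on a broad set of antiviral genes through STAT factors. CMPK2, a mitochondrial nucleotide kinase gene, belongs to that set in mammals.

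IL2RG (ENSGALG00000005638) lies on chromosome 4 of the Galgal4 assembly, from 2367919 to 2370689 on the plus strand, with 8 exons of 1440 bases in all. IL22RA2 (ENSGALG00000013868) lies on chromosome 3, from 54115178 to 54118141 on the plus strand, with 5 exons of 699 bases in all. CCL20 (ENSGALG00000003003) lies on chromosome 9, from 9020464 to 9022561 on the plus strand, with 4 exons of 836 bases in all. CMPK2 (ENSGALG00000028982) lies on chromosome 3, from 94575875 to 94584183 on the minus strand, with 5 exons of 4373 bases in all. Counts were taken without regard to strand, so reads from an overlapping antisense transcript would be included. In a newer RefSeq annotation (GRCg7b) the model of IL2RG overlaps that of its neighbour CXorf65, and reads from that stretch could belong to either gene. In the same annotation IL22RA2 stands between IFNGR1 and IL20RA, which also encode cytokine receptor chains.

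Levels between genes were compared per kilobase of exon, as RPKM on scaled library sizes, with the mean and SD over all 10 birds. CMPK2 averaged 44.2 ± 28.9 RPKM, IL2RG 31.8 ± 9.93 RPKM, CCL20 23.1 ± 13.02 RPKM and IL22RA2 3.80 ± 2.92 RPKM. The first 3 genes overlapped within their spread, and CMPK2 and IL2RG each ranked first in 5 of 10 libraries. IL22RA2 ranked last in all 10 libraries. By mean RPKM, CMPK2 stood above 83.4% of the 12187 tested genes, IL2RG above 75.0%, CCL20 above 65.0% and IL22RA2 above 18.6%.

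Levels within a gene are given as CPM, the counts of a gene per 1000000 counted fragments after TMM scaling of library sizes. IL2RG had 72.0, 58.2 and 46.9 CPM in birds 1, 3 and 4 at 0.8% Ca. At 1.0% Ca it had 35.2, 37.2, 34.8 and 31.1 CPM in birds 1 to 4. At 1.2% Ca it had 31.6, 49.1 and 61.9 CPM in birds 1 to 3. The 4 birds at 1.0% Ca lay close together and all below the 3 birds at 0.8% Ca, while the birds at 1.2% Ca spanned both. Group means were 59.0 ± 12.6 CPM at 0.8% Ca (SD, n = 3), 34.6 ± 2.57 CPM at 1.0% Ca (SD, n = 4) and 47.5 ± 15.2 CPM at 1.2% Ca (SD, n = 3).

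The log2 change of IL2RG at 1.0% against 0.8% Ca, the comparison it was chosen on, was -0.77 (SE 0.21). In the comparisons not used for the choice, which share birds with it, the log2 change was -0.31 (SE 0.22) at 1.2% against 0.8% Ca, with an adjusted p of 0.699. At 1.2% against 1.0% Ca it was 0.46 (SE 0.21), with an adjusted p of 0.961. The groups overlapped in both comparisons, neither of which passed the threshold, and at 1.2% Ca bird 1 was the low bird and bird 3 the high bird. Without bird 3 at 1.2% Ca, the change at 1.2% against 1.0% Ca was 0.22, and without bird 1 at 1.2% Ca it was 0.68. The straight-line change over the range of Ca, fitted from 0.8 to 1.2%, was -0.31 on the log2 scale with all birds and -0.63 without bird 3 at 1.2% Ca.

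IL2RG varied in part with the genes of a leukocyte list across birds. The list holds SPI1, the myeloid transcription factor gene, CD180, a surface receptor gene of B cells, and LY86. It also holds TLR7, a receptor for viral RNA, MYO1F, a myosin of leukocytes, and Nox2, the phagocyte oxidase. These 6 of 8 listed genes could be matched, and none was at 0 in any library. Their summed level was 692, 440 and 470 CPM in birds 1, 3 and 4 at 0.8% Ca. It was 357, 280, 507 and 356 CPM in birds 1 to 4 at 1.0% Ca. It was 272, 717 and 954 CPM in birds 1 to 3 at 1.2% Ca. The lowest bird at 1.2% Ca for IL2RG, bird 1, also had the lowest sum of all 10 birds, and the highest at 1.2% Ca, bird 3, had the highest sum. Gene by gene, bird 1 at 1.2% Ca was the lowest bird for MYO1F alone. Not all birds went together. The sum in bird 3 at 1.0% Ca, 507 CPM, exceeded the 440 and 470 CPM of birds 3 and 4 at 0.8% Ca. Its IL2RG was lower than theirs, at 34.8 against 58.2 and 46.9 CPM.

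Over the 10 libraries, Pearson's r of log2 CPM between IL2RG and each of the 6 genes ran from 0.69 for LY86 to 0.87 for MYO1F. With the group means removed it ran from 0.72 for SPI1 to 0.86 for MYO1F, and without the 2 birds farthest from the IL2RG median it ran from 0.49 for LY86 to 0.74 for Nox2. Of 12186 other tested genes, 231 had r over 0.8 with IL2RG over the 10 libraries, among them CD180, MYO1F and Nox2 of the list. These are descriptions over libraries that share depth and lane. All 6 genes were lower at 1.0% than at 0.8% Ca, with a median log2 change of -0.66 against 0.012 over all tested genes. All 6 were higher at 1.2% than at 1.0% Ca, with a median of 0.91 against -0.0021 over all tested genes. None passed the quasi-likelihood, likelihood ratio or DESeq2 test in either comparison, and 0 and 3 of the 6 had an unadjusted p under 0.05 by the first of these, as 8.48% and 3.68% of all tested genes had. The study had named these genes for differences between these same birds, so their directions are not independent evidence. In whole kidney, fewer leukocytes and less RNA per leukocyte cannot be told apart, and the part of the leukocyte genes in the IL2RG values was not tested.

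**Figure D1:**
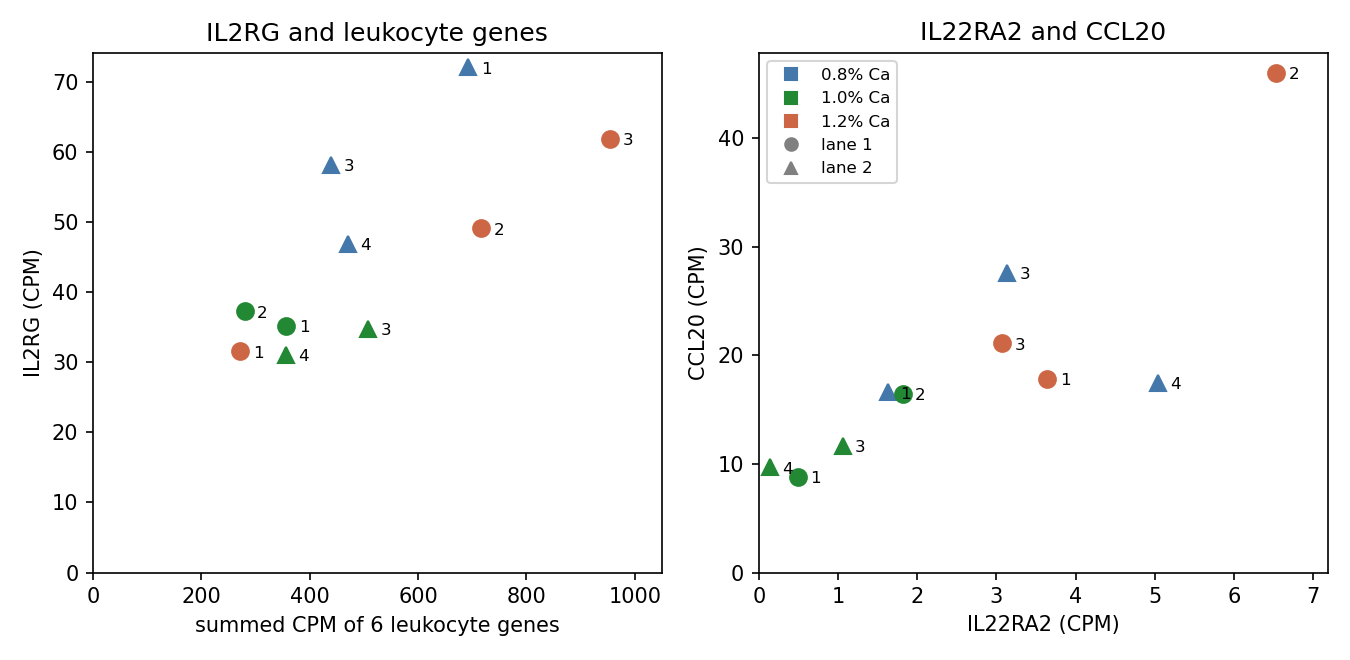
IL2RG in CPM against the summed CPM of 6 leukocyte genes (left), and CCL20 against IL22RA2, both in CPM (right), with 1 point per library, numbered by bird, coloured by Ca group and shaped by lane. IL2RG and the leukocyte sum are both low in bird 1 at 1.2% Ca, with 31.6 and 272 CPM, and bird 2 at 1.2% Ca is the highest for IL22RA2 and CCL20, with 6.53 and 46.0 CPM.

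By the rule of highest r over the 10 libraries, 10 genes were picked as most like IL2RG. They had r between 0.94 and 0.96, led by ENSGALG00000003951 and ENSGALG00000002558, for which no name was matched. The only named gene among them was GILT, the lysosomal thiol reductase of antigen-presenting cells, with r of 0.94, and 0.90 with group means removed. GILT had 133, 106 and 87.9 CPM in birds 1, 3 and 4 at 0.8% Ca. It had 60.0, 51.2, 74.7 and 53.4 CPM at 1.0% Ca and 47.1, 90.1 and 137 CPM at 1.2% Ca. As with IL2RG, the 1.0% Ca birds lay below the 0.8% Ca birds and the 1.2% Ca birds spanned both. The study had called both genes between 1.0 and 0.8% Ca on these same birds, which fixes part of this likeness.

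IL22RA2 was the least abundant of the 4 genes, with 188 counts over all libraries. It received 10, 21 and 36 counts in birds 1, 3 and 4 at 0.8% Ca, or 1.63, 3.13 and 5.04 CPM. It received 3, 13, 7 and 1 counts in birds 1 to 4 at 1.0% Ca, or 0.489, 1.81, 1.06 and 0.136 CPM. It received 27, 46 and 24 counts in birds 1 to 3 at 1.2% Ca, or 3.64, 6.53 and 3.07 CPM. The birds at 1.2% Ca all lay above those at 1.0% Ca, whereas bird 1 at 0.8% Ca fell below bird 2 at 1.0% Ca. The counting intervals of the nearest birds of the 2 higher Ca groups overlapped. The exact Poisson 95% interval was 1.97 to 4.56 CPM for bird 3 at 1.2% Ca and 0.966 to 3.10 CPM for bird 2 at 1.0% Ca. These intervals cover counting error only.

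Mean IL22RA2 was 3.27 ± 1.71 CPM at 0.8% Ca (SD, n = 3), 0.874 ± 0.732 CPM at 1.0% Ca (SD, n = 4) and 4.41 ± 1.85 CPM at 1.2% Ca (SD, n = 3). The log2 change at 1.2% against 1.0% Ca, on which the gene was chosen, was 2.30 (SE 0.62). At 1.0% against 0.8% Ca, a comparison that was not used but shares the 1.0% Ca birds, the log2 change was -1.88 (SE 0.63) with an adjusted p of 0.470. At 1.2% against 0.8% Ca it was 0.42 (SE 0.60) with an adjusted p of 0.863, and it was -0.57 with lane as a covariate. The 1.2 and 0.8% Ca groups, at the ends of the range, overlapped. The straight-line change was 0.47 with all birds, -0.16 without bird 2 at 1.2% Ca and -0.16 with lane as a covariate.

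CCL20 had 16.6, 27.6 and 17.5 CPM in birds 1, 3 and 4 at 0.8% Ca. At 1.0% Ca it had 8.80, 16.5, 11.6 and 9.68 CPM in birds 1 to 4. At 1.2% Ca it had 17.8, 46.0 and 21.1 CPM in birds 1 to 3. Every bird at 1.0% Ca lay below every bird of the other groups, although bird 2 at 1.0% Ca, at 16.46 CPM, came within its counting interval of bird 1 at 0.8% Ca, at 16.59 CPM. Bird 2 at 1.2% Ca had the most CCL20.

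Group means of CCL20 were 20.6 ± 6.11 CPM at 0.8% Ca (SD, n = 3), 11.6 ± 3.42 CPM at 1.0% Ca (SD, n = 4) and 28.3 ± 15.4 CPM at 1.2% Ca (SD, n = 3). The log2 change at 1.2% against 1.0% Ca, the comparison of choice, was 1.27 (SE 0.35), and it was 0.74 without bird 2 at 1.2% Ca. The comparisons not used share birds with the comparison of choice. In them, the log2 change at 1.0% against 0.8% Ca was -0.82 (SE 0.35) with an adjusted p of 0.575. At 1.2% against 0.8% Ca the log2 change was 0.46 (SE 0.37) with an adjusted p of 0.732. That last difference rested on 1 bird, since it was -0.080 without bird 2 at 1.2% Ca. The straight-line change likewise was 0.48 with all birds and -0.19 without that bird.

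IL22RA2 and CCL20 resembled each other across the libraries. Pearson's r of their log2 CPM was 0.85 and Spearman's rho 0.87 (n = 10 libraries). Without the 2 birds farthest from the IL22RA2 median r was 0.77, and with the group means removed it was 0.62. Both were chosen for the same contrast on the same birds, which fixes part of this likeness, and IL22RA2 rests on few counts. Among the 10 genes most like IL22RA2, with r between 0.84 and 0.93, CCL20 ranked the fifth and was the only named one. Among the 10 most like CCL20, with r between 0.85 and 0.93, IL22RA2 ranked the eighth and was the only named one.

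With the 6 genes of the leukocyte list, r over the 10 libraries ran from 0.25 to 0.50 for IL22RA2 and from 0.40 to 0.51 for CCL20. Within groups it ran from -0.21 to 0.073 for IL22RA2 and from 0.083 to 0.17 for CCL20. IL2RG and CCL20 had r of 0.55 over the 10 libraries and 0.26 within groups. IL2RG and IL22RA2 had r of 0.47 over the 10 libraries and -0.098 within groups. CCL20 has a relative in CXCL12, a stromal chemokine gene, which had means of 138 ± 35.3 CPM at 0.8% Ca, 242 ± 95.4 CPM at 1.0% Ca and 182 ± 71.6 CPM at 1.2% Ca. NFKBIZ, which encodes a nuclear regulator of inflammatory transcription in mouse, had means of 78.7 ± 11.5 CPM at 0.8% Ca, 123 ± 39.9 CPM at 1.0% Ca and 106 ± 11.8 CPM at 1.2% Ca. The values of these 2 genes, the only ones matched of 4 listed relatives, were highest on average at 1.0% Ca, where CCL20 was lowest. Over the 10 libraries r with CXCL12 was 0.083 for CCL20 and 0.060 for IL22RA2, but with the group means removed it was 0.76 and 0.92. Neither CXCL12 nor NFKBIZ passed the quasi-likelihood, likelihood ratio or DESeq2 test in any comparison, and both had an unadjusted p under 0.05 by the first of these at 1.0% against 0.8% Ca, the contrast for which the study had named them.

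**Figure D2:**
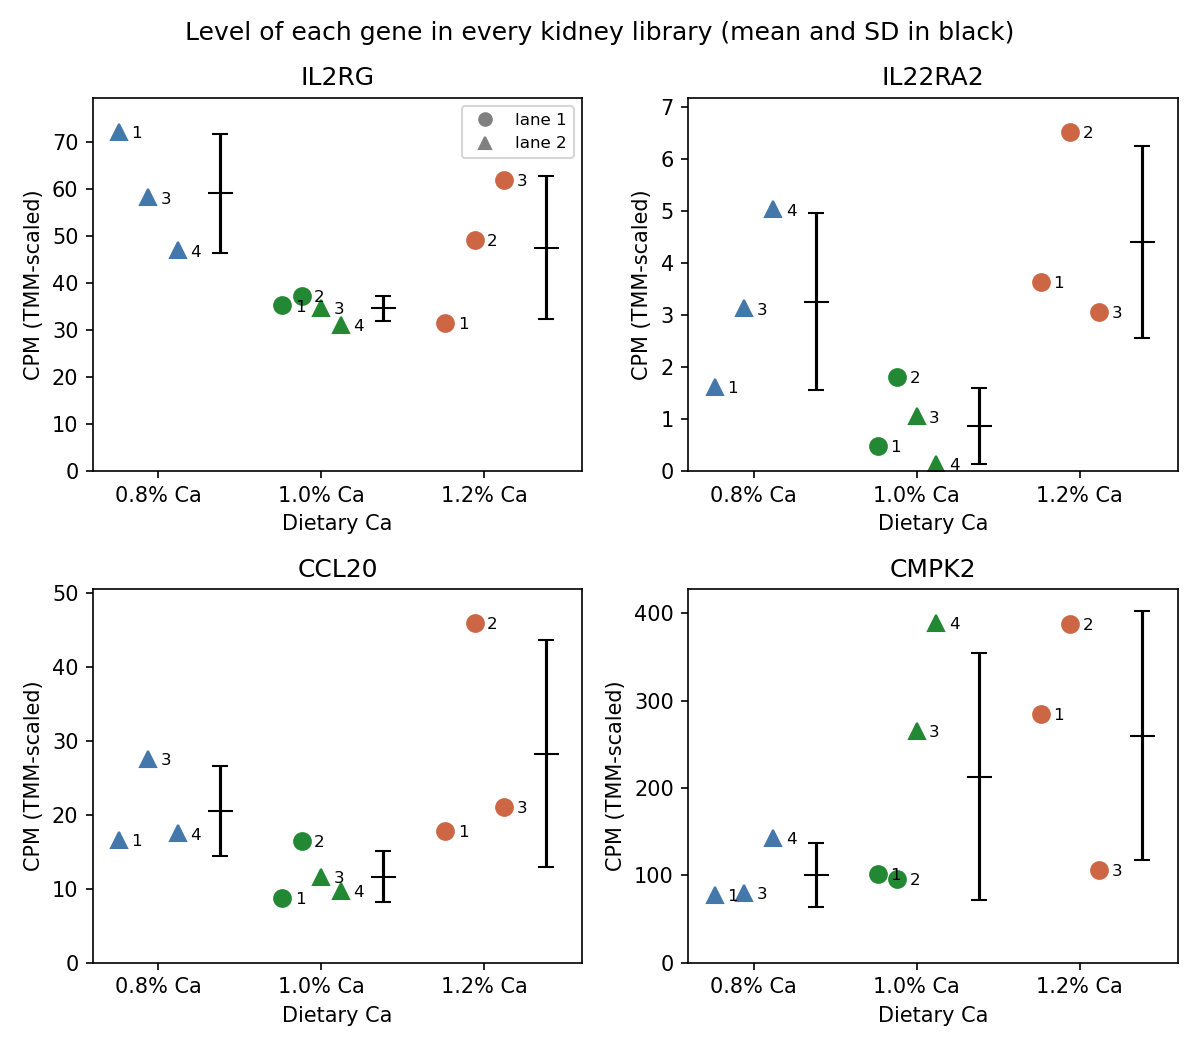
CPM of IL2RG, IL22RA2, CCL20 and CMPK2 in every library by dietary Ca, numbered by bird, with circles for lane 1, triangles for lane 2, and the mean and SD of each group in black. The 1.0% Ca birds of CCL20, at 8.80 to 16.5 CPM, lie below all others, and CMPK2 splits the 1.0% Ca birds into those of lane 2, at 266 and 389 CPM, and those of lane 1, at 101 and 95.7 CPM.

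The birds of CMPK2 split into high and low ones within the 1.0 and 1.2% Ca groups. It had 77.4, 80.3 and 143 CPM in birds 1, 3 and 4 at 0.8% Ca. At 1.0% Ca it had 101, 95.7, 266 and 389 CPM in birds 1 to 4. At 1.2% Ca it had 285, 388 and 106 CPM in birds 1 to 3. Birds 3 and 4 at 1.0% Ca and birds 1 and 2 at 1.2% Ca were high, no bird lay between 143 and 266 CPM, and the groups overlapped in every comparison. Counting error is small beside this spread, with exact Poisson 95% intervals of 375 to 403 CPM for bird 4 and 88.7 to 103 CPM for bird 2, both at 1.0% Ca.

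Mean CMPK2 was 100.2 ± 37.1 CPM at 0.8% Ca (SD, n = 3), 213 ± 141 CPM at 1.0% Ca (SD, n = 4) and 260 ± 143 CPM at 1.2% Ca (SD, n = 3). The log2 changes of the comparisons on which it was chosen were 1.09 (SE 0.56) at 1.0% against 0.8% Ca and 1.37 (SE 0.59) at 1.2% against 0.8% Ca. At 1.2% against 1.0% Ca, which was not used but shares their birds, the log2 change was 0.29 (SE 0.54) with an adjusted p of 0.967. It was -0.12 without bird 2 at 1.2% Ca. The straight-line change from 0.8 to 1.2% Ca was 1.37 on the log2 scale.

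Within groups, the SD of log2 CPM was 0.88 for CMPK2, larger than in 99.3% of the 1072 tested genes whose mean level lay within 0.5 log2 units of it, which had a median SD of 0.14. It was 0.32 for IL2RG, above 86.7% of 2337 genes of like level. It was 0.51 for CCL20, above 90.3% of 1962 such genes, and 0.82 for IL22RA2, above 83.2% of 931 such genes. All 4 genes thus varied more between birds on the same diet than most genes of their level.

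The high birds of CMPK2 moved with the lane inside the 1.0% Ca group. CMPK2 averaged 327 CPM in the 2 birds of lane 2 and 98.5 CPM in the 2 birds of lane 1 at 1.0% Ca. Of all tested genes, 20.4% were higher in both lane 2 birds than in both lane 1 birds of that group, and 22.0% were lower. The high birds at 1.2% Ca were in lane 1, and the birds at 0.8% Ca, all at or below 143 CPM, were in lane 2. Within lane 1, the log2 difference of mean log2 CPM at 1.2% minus 1.0% Ca was 1.21 (3 birds and 2 birds). Within lane 2, that at 1.0% minus 0.8% Ca was 1.74 (2 birds and 3 birds). With lane as a covariate the log2 change at 1.2% against 0.8% Ca was 3.10, but no lane held birds of both of these groups, so there lane and Ca cannot be told apart without the 1.0% Ca birds.

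The other members had the same signs within lanes as over all birds. Within lane 1, the difference at 1.2% minus 1.0% Ca was 0.34 for IL2RG, 1.81 for IL22RA2 and 1.08 for CCL20 on the log2 scale. Within lane 2, the difference at 1.0% minus 0.8% Ca was -0.82 for IL2RG, -2.11 for IL22RA2 and -0.90 for CCL20. The groups did not overlap for IL22RA2 and CCL20 at 1.2% against 1.0% Ca. They did not overlap either for IL2RG and CCL20 at 1.0% against 0.8% Ca. There any subset of birds gives the same sign, so nothing about lane is read from it. Each of these genes was also chosen on a contrast where its groups did not overlap.

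Interferon-induced genes varied with CMPK2 from bird to bird. The list had 12 names, of which 10 could be matched to 1 counted gene each. RSAD2, the antiviral enzyme viperin, is the neighbour of CMPK2 in the genome, on the opposite strand, and 5055 bases separate the 2 genes, which face away from each other. RSAD2 had 34.3, 15.7 and 33.2 CPM in birds 1, 3 and 4 at 0.8% Ca. It had 21.7, 21.3, 109 and 166 CPM in birds 1 to 4 at 1.0% Ca and 52.3, 132 and 21.7 CPM in birds 1 to 3 at 1.2% Ca. The 4 highest birds were the 4 highest of CMPK2.

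ISG12(2), a small interferon-induced membrane protein gene, had 133, 112 and 225 CPM in birds 1, 3 and 4 at 0.8% Ca. It had 112, 134, 409 and 543 CPM at 1.0% Ca and 432, 483 and 96.1 CPM at 1.2% Ca. The same 4 birds were again the highest, as they were for RSAD2 and for EIF2AK2 (the RNA-activated kinase PKR), EPSTI1, PARP9, ZC3HAV1 (the zinc-finger antiviral protein) and TLR3 (a receptor for double-stranded RNA), or 7 of the 10 listed genes. For HELZ2, 3 of the 4 highest birds were shared. Among all other tested genes, 127 of 12176, or 1.04%, had the same 4 highest birds. The study had named CMPK2 and the listed genes for differences from 0.8% Ca on these same birds. That choice fixes part of the likeness, so nothing is read from the count. The exceptions in the list were TAP2, a peptide transporter of antigen presentation, with 2 of the 4 birds, and GILT, with 1.

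Pearson's r between CMPK2 and each of the 10 genes over the 10 libraries had a median of 0.92, against 0.027 over all other tested genes. The largest was 0.96 for ISG12(2), and the smallest were -0.028 for TAP2 and -0.45 for GILT. With the group means removed the median was 0.93, and r was 0.53 for TAP2 and -0.35 for GILT. The choice of CMPK2 and the listed genes on these same birds fixes part of the correlations over the 10 libraries as well. Removing the group means leaves the split by lane inside the 1.0% Ca group. The part of that split, and of the choice, in the within-group values was not tested. RSAD2 had r of 0.92 over the 10 libraries, 0.84 without the 2 birds farthest from the CMPK2 median and 0.93 within groups. Because the birds fall on both sides of a gap, r was also taken over the 6 birds at or below 143 CPM of CMPK2. There it ran from -0.22 for GILT to 0.82 for EPSTI1 among the 10. It was 0.20 for EIF2AK2, 0.35 for RSAD2, 0.38 for TLR3 and 0.61 for ISG12(2). Most of the likeness to RSAD2 thus rests on the 4 high birds.

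Among the 10 genes most like CMPK2, with r between 0.95 and 0.97, the named ones were ISG12(2), EPSTI1, ZC3HAV1 and PARP9. The nearest of all were ENSGALG00000013057 and ENSGALG00000010149, for which no name was matched. The loci of Mx and OAS*A, antiviral genes that block virus replication and sense viral RNA, hold 2 counted genes each, and which of them carries the name was not settled. At the Mx locus, ENSGALG00000016142 had r of 0.93 with CMPK2 and ranged from 41.0 to 335 CPM, and ENSGALG00000016144 had r of 0.15 and ranged from 23.1 to 36.6 CPM. At the OAS*A locus, ENSGALG00000013723 had r of 0.91 and ranged from 57.3 to 425 CPM, and ENSGALG00000013722 had r of 0.40 and ranged from 3.75 to 8.82 CPM. With the group means removed, r was 0.91 for ENSGALG00000016142 and 0.037 for ENSGALG00000016144, and 0.95 for ENSGALG00000013723 and 0.76 for ENSGALG00000013722.

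**Figure D3:**
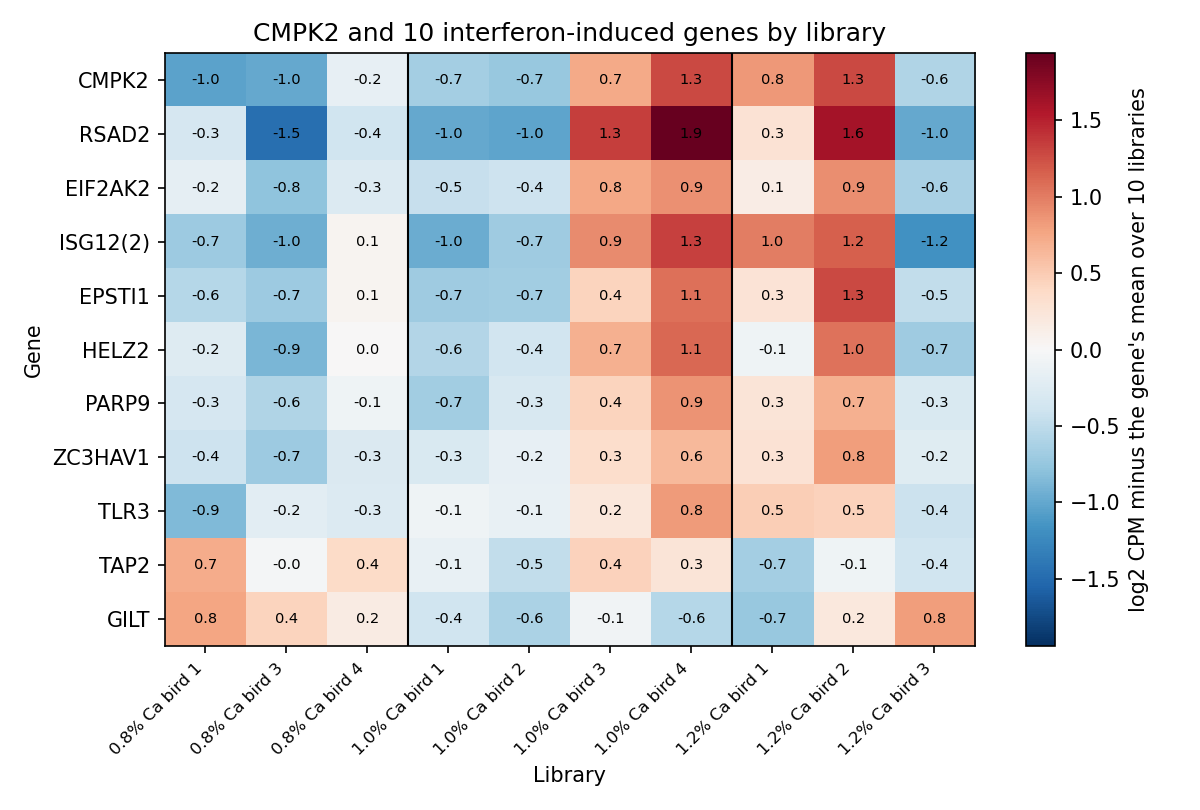
Log2 CPM of CMPK2 and the 10 matched interferon-induced genes in each library, minus the gene's mean over the 10 libraries, with birds ordered by dietary Ca. Red cells are above the gene's mean and blue cells below, and birds 3 and 4 at 1.0% Ca and birds 1 and 2 at 1.2% Ca are red for 7 of the 10 listed genes as for CMPK2.

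Of the 10 listed genes, 8 had a positive and 2 a negative log2 change at 1.0% against 0.8% Ca, with a median of 0.65 against 0.012 over all tested genes. At 1.2% against 0.8% Ca the counts were again 8 and 2, with a median of 0.65 against 0.0081. At 1.2% against 1.0% Ca they were 5 and 5, with a median of 0.013 against -0.0021. None of the 10 passed the quasi-likelihood, likelihood ratio or DESeq2 test in any of these comparisons, and 3, 2 and 0 of them had an unadjusted p under 0.05 by the first of these, as 8.48%, 8.82% and 3.68% of all tested genes had. The comparisons share birds, and the study had named each of the 10 genes for a difference from 0.8% Ca on these birds, so the directions were partly fixed. As with CMPK2, 9 of the 10, all but GILT, were higher in both lane 2 birds than in both lane 1 birds at 1.0% Ca. This held for 20.4% of all tested genes. Because 7 of the listed genes share their 4 highest birds with CMPK2, these are not separate observations. The part of lane in this was not tested.

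CMPK2 did not follow the leukocyte list, with r between -0.29 for MYO1F and 0.0030 for SPI1 over the 10 libraries. With IL2RG it had r of -0.58 over the 10 libraries and -0.57 within groups, and -0.40 without the 2 birds farthest from the IL2RG median. With IL22RA2 and CCL20 r was -0.068 and 0.046 over the 10 libraries, and -0.063 and 0.071 within groups. Without the 2 birds farthest from the IL22RA2 median, r with IL22RA2 was 0.33. Without the 2 birds farthest from the CCL20 median, r with CCL20 was -0.74. Among members and their flanking genes, CMPK2 and RSAD2 were the only ones with r over 0.9. The other 5 flanking genes that passed the filter had r between -0.23 and 0.48 with their member.

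Other marker lists were summed in the same libraries. None of their genes passed the quasi-likelihood test in any comparison. The likelihood ratio test and DESeq2 each called KLF2 and FABP4 for the straight line and at 1.2% against 0.8% Ca. There the likelihood ratio test called 0.287% and 0.156% of all tested genes, and DESeq2 called 56 and 42 of 12187. The study had named all of these marker genes for differences on these same birds, so nothing is read from their calls or directions. The heterophil granule genes GAL1 and GAL2, 2 of 3 matched, summed to between 27.3 and 73.1 CPM at 0.8% Ca, 41.0 and 99.1 CPM at 1.0% Ca, and 98.2 and 202 CPM at 1.2% Ca. The endothelial genes KLF2 and APOLD1, both matched, summed to between 325 and 519 CPM at 0.8% Ca, 215 and 430 CPM at 1.0% Ca, and 167 and 253 CPM at 1.2% Ca. The adipocyte genes FABP4 and LPL, both matched, summed to between 50.4 and 108 CPM at 0.8% Ca, 39.5 and 81.8 CPM at 1.0% Ca, and 40.1 and 77.9 CPM at 1.2% Ca. The 2 adipocyte genes had opposite signs, with log2 changes at 1.2% against 0.8% Ca of 3.89 for FABP4 and -0.76 for LPL. LPL, the larger part of the sum in every bird, averaged 45.3 CPM at 1.2% Ca against 76.5 CPM at 0.8% Ca, while FABP4 averaged 11.3 CPM at 1.2% Ca against 0.724 CPM at 0.8% Ca. GAL1 had r of 0.31 with IL22RA2 over the 10 libraries and -0.46 within groups, and r of 0.34 with CCL20 over the 10 libraries and -0.36 within groups. No marker gene was at 0 in any library. Their part in the members' values was not tested, and no kidney tubule marker could be matched by name to check the tissue.

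In the comparisons between groups that had not chosen a gene, given above with their adjusted p, none of the 4 genes was called by the quasi-likelihood test. The fit over all genes called 0% of the 12187 tested genes for the straight line and for each of the 3 pairs of groups, so no member there either. At an unadjusted p under 0.05 it had 1099 genes for the straight line, 1034 at 1.0% against 0.8% Ca, 1075 at 1.2% against 0.8% Ca and 448 at 1.2% against 1.0% Ca. The likelihood ratio test called 0 of the 4 genes as well, and 0.287% of all tested genes for the straight line, 0.181% at 1.0% against 0.8% Ca, 0.156% at 1.2% against 0.8% Ca and 0.0246% at 1.2% against 1.0% Ca. DESeq2 also called none of the 4, and it called 56, 30, 42 and 3 of the 12187 tested genes in the same order. Since the members were chosen on some of these contrasts, nothing is read from those counts.

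**Figure D4:**
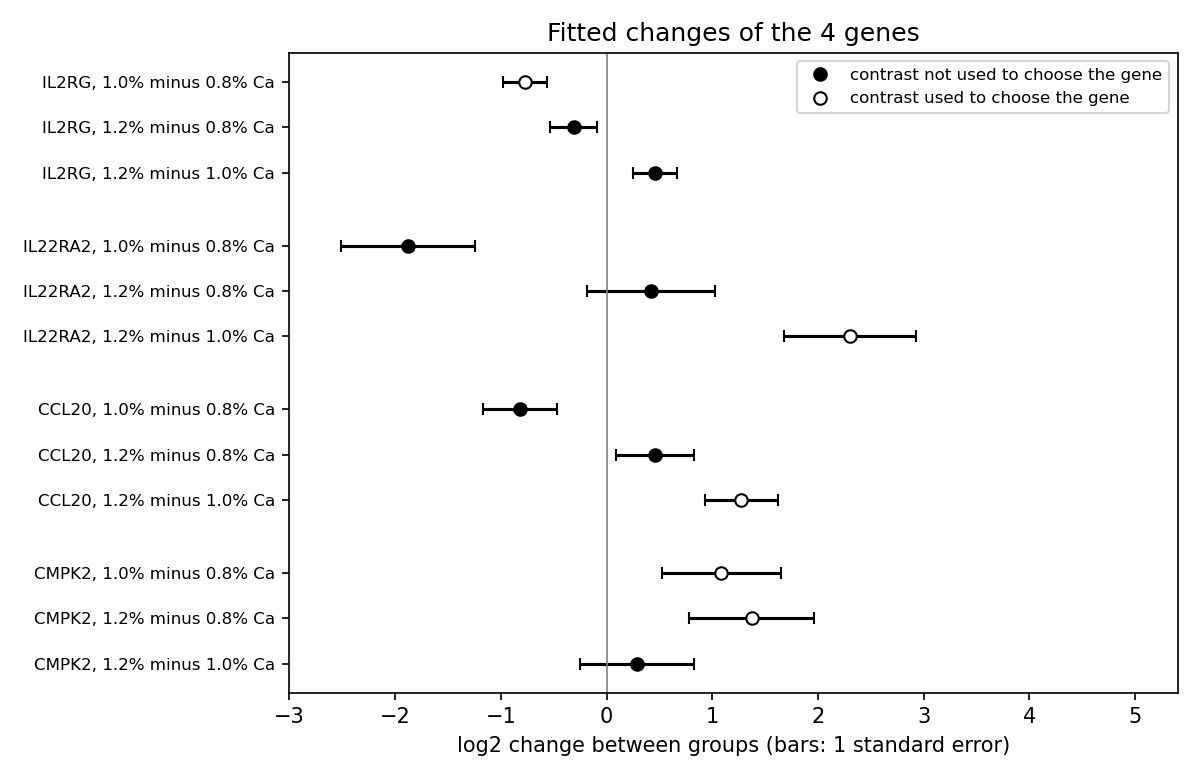
Fitted log2 change of each of the 4 genes in the 3 comparisons between Ca groups, with bars of 1 standard error. Open points mark the contrasts on which a gene was chosen, and among the filled points IL22RA2 at 1.0% against 0.8% Ca is the farthest from 0, at -1.88 (SE 0.63).

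Groups whose birds did not overlap were counted as a description. At 1.0% against 0.8% Ca, 2 of the 4 genes lay wholly lower, IL2RG and CCL20, and 6.69% of tested genes did so. IL2RG was chosen on that contrast and CCL20 on one that shares the 1.0% Ca birds, so nothing is read from this count. At 1.2% against 1.0% Ca, IL22RA2 and CCL20 lay wholly higher, as 2.6% of tested genes did, but both were chosen on that contrast. At 1.2% against 0.8% Ca none of the 4 was wholly higher or lower, against 6.65% and 8.34% of tested genes. CCL20 alone lay at 1.0% Ca below all birds of both other groups, as 0.517% of tested genes did, but the choice on 1.2% against 1.0% Ca fixed part of this, so nothing is read from it. The mean was lowest at 1.0% Ca for 3 of the 4 genes, IL2RG, IL22RA2 and CCL20, and for 28.6% of tested genes, but the choice of members fixed part of that pattern, so nothing is read from the count.

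Leaving out each library in turn showed which birds carried the differences. The change of IL2RG at 1.0% against 0.8% Ca ran from -0.91 to -0.60, and that of IL22RA2 from -2.53 to -1.43. The change of IL22RA2 at 1.2% against 1.0% Ca ran from 1.91 to 2.95, its largest value coming without bird 2 at 1.0% Ca. IL2RG at 1.0% against 0.8% Ca and IL22RA2 at 1.2% against 1.0% Ca were chosen on those contrasts, where their groups did not overlap. Leaving out 1 bird could not turn those signs, so nothing is read from them. The change of CMPK2 at 1.0% against 0.8% Ca ran from 0.63 without bird 4 at 1.0% Ca to 1.43 without bird 4 at 0.8% Ca. At 1.2% against 0.8% Ca it ran from 0.96 to 1.75. Bird 2 at 1.2% Ca, the highest bird there for CMPK2, CCL20 and IL22RA2, was the bird whose absence turned the signs named above for CCL20 and CMPK2, and that of the straight-line change of IL22RA2.

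**Figure D5:**
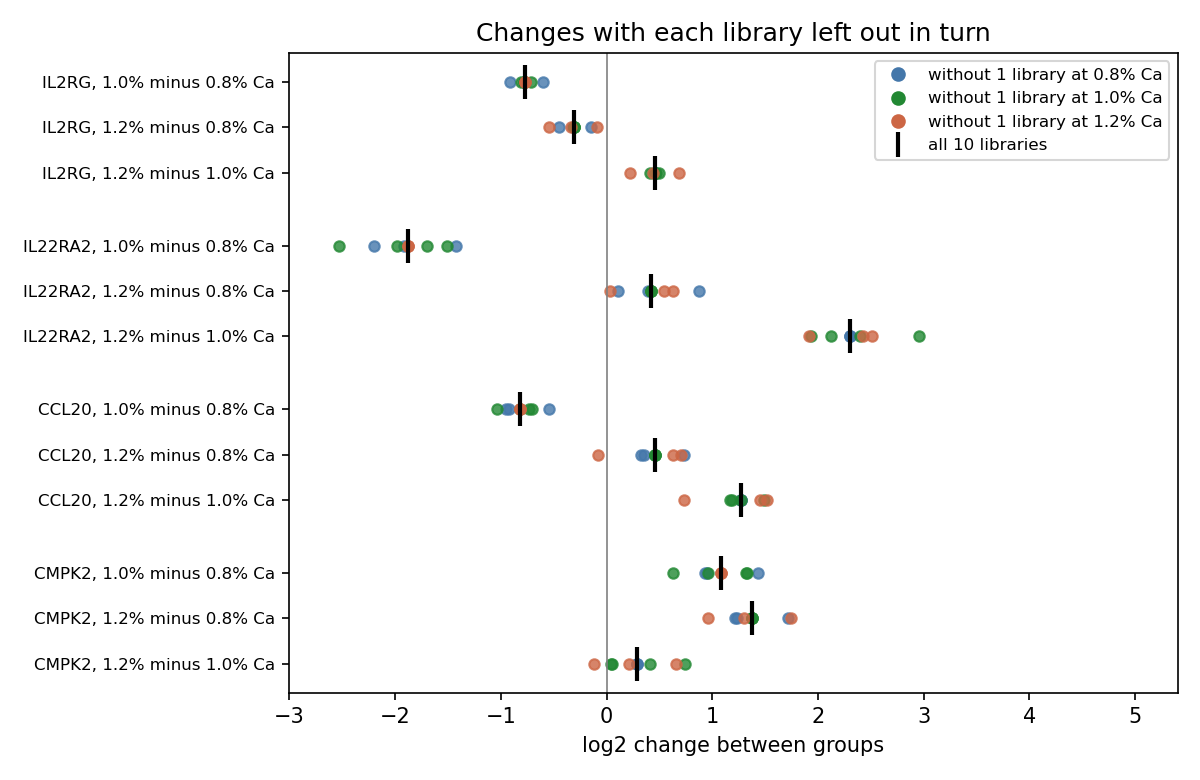
Fitted log2 change of each gene in each comparison with all 10 libraries (black ticks) and with 1 library left out (points coloured by the Ca group of the library left out). The points of CCL20 at 1.2% against 0.8% Ca and of CMPK2 at 1.2% against 1.0% Ca reach -0.080 and -0.12, on the other side of 0 from the ticks.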

How the data were processed

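Per the file header and the methods, reads were trimmed and mapped by the authors to Galgal4 (HISAT2 2.0.4), and fragments on Ensembl exons were summed per gene (featureCounts 1.5.0-p3) with no strand setting. The deposited values are raw counts for 17108 genes, with exon lengths. The labels name a stranded kit, the methods one that is not described as stranded.

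Counts were fitted in edgeR 4.0.16 (R 4.3.3) with filterByExpr, TMM factors and the quasi-likelihood test over all 10 libraries, with Ca as a number (straight line) or as groups. Adjusted p-values are Benjamini-Hochberg values over 12187 genes, with thresholds of 0.1 (straight line) and 0.05 (pairs). Standard errors are the log2 change divided by the root of F. Correlations used log2 CPM with a prior count of 2. The likelihood ratio test, DESeq2 1.42.0, other factors and filters, lane, a replicate block and each library left out were the alternatives, and the fit was tested on simulated data.

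The members, lists and tests were chosen with earlier results of these data known. Named genes are the members, the interferon-induced list, the list of relatives, 4 lists of cell markers, the neighbours of each member and the 10 genes most like it. Names were matched to identifiers by the loci of the supplementary tables (146 names 1 to 1, 21 not), and 0 identifiers were found in the RefSeq table. Promoter and protein sequences were not used here. Birds are taken as replicates, and the p-values set differences between groups against the spread between birds. Diets were given by pen, and with the pen of each bird unknown, spread between pens cannot be told apart from spread between birds. Counted fragments set the precision of each level.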

Additional observations from a re-analysis of the deposited data

How the results depend on the processing

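In the comparisons that had not chosen a gene, none of the 4 genes passed the threshold under the 19 alternative settings. The 4 genes gave 300 log2 changes over all comparisons and the straight line, including the comparisons that had chosen a gene. Of these, 293 kept their sign and 7 changed it. The choice of genes and the birds that the settings share fixed part of this, so nothing is read from the count. The change at 1.2% against 0.8% Ca ran from -0.080 to 0.73 for CCL20 over the fits with 1 library left out, and the change of CMPK2 at 1.2% against 1.0% Ca ran from -0.12 to 0.74. Both were negative only without bird 2 at 1.2% Ca. The straight-line change turned negative without that bird for CCL20 (-0.19) and IL22RA2 (-0.16), with lane as a covariate for IL22RA2 (-0.16) and with the replicate block for CCL20 (-0.0070). With lane as a covariate the change of IL22RA2 at 1.2% against 0.8% Ca was -0.57 and that of CMPK2 3.10. The cause was not tested.

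Over all genes, where the quasi-likelihood test called 0, the likelihood ratio test called 35 for the straight line, 22 at 1.0% against 0.8% Ca, 19 at 1.2% against 0.8% Ca and 3 at 1.2% against 1.0% Ca. DESeq2 called 56, 30, 42 and 3 in that order. The 3 genes were the same in both, TF, ENSGALG00000000860 and ENSGALG00000002080. With 1 library left out the count was between 0 and 44 for the straight line (44 without bird 3 at 1.2% Ca), 0 and 2 at 1.0% against 0.8% Ca (DPP6 and ENSGALG00000027902 without bird 2 at 1.2% Ca) and 0 and 1 at 1.2% against 1.0% Ca (TF without bird 3 at 1.0% Ca, DPP6 without bird 2 at 1.2% Ca). DPP6 was the 1 gene called at 1.0% against 0.8% Ca when that pair was fitted alone. These genes were named after their values were seen.

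With the replicate block the quasi-likelihood test called 0 genes in every comparison, with 795 at an unadjusted p under 0.05 for the straight line. Nothing in the labels says that a number marks a shared pen or day. The deviations of the 8 same-numbered pairs of birds correlated between -0.41 and 0.32, above 0.1 in 2 pairs. Those of differently numbered pairs correlated between -0.34 and 0.46. These values cannot tell whether same-numbered birds shared a pen or day. Groups of 3 and 4 birds, counts as low as 1 for IL22RA2 and the lanes limit what these libraries can show.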
